A study of Homo sapiens with 4 samples.

Results

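Megakaryocytes, the bone marrow cells that shed platelets, and the platelets themselves carry a characteristic set of growth factors, adhesion receptors and regulators. Of this set, 10 genes were read by symbol after CEBPG knockdown: the growth factor genes PDGFB and PDGFA, the receptor genes ITGA2B, ITGB3, GP1BB and GP9, the transcription factor genes FLI1 and RUNX1, the granule protein gene THBS1, and CD9, which encodes a surface tetraspanin. They were selected on measured values as well as on function: the knockdown against control difference of PDGFB in these same 4 libraries was known when the list was drawn up. Of the 10 genes, 8 had a row among the 16504 gene symbols of the table, while FLI1 and GP9 had no row under these symbols in the table used here and were not analysed here.

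Transcripts were quantified by RNA-seq in 4 libraries labelled as the human line NB4, which derives from acute promyelocytic leukemia, to ask which transcripts depend on the C/EBP family member CEBPG, a dimerizing transcription factor. The control group (titles with NC) held 2 libraries in which CEBPG was left in place. The knockdown group (titles with CEBPG3) held 2 libraries in which it was silenced. Per the methods of the study, silencing used short hairpin RNAs delivered by lentivirus from a vector with puromycin resistance, stable lines were selected with puromycin, and control cells carried a control hairpin. All 4 libraries therefore share the cell line, and the knockdown libraries carry 1 construct name. Whether the replicates were separate cultures was not stated, so p-values measure only the spread between these libraries, which may be technical.

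Expression was given in FPKM (fragments scaled to transcript length and to the mapped reads of the library). Read depth was unknown, and no counting interval could be given. FPKM summed to between 345340 and 366139 per library, and between 10875 and 10964 genes per library reached 1 FPKM. CEBPG itself was at 17.1 and 18.1 FPKM in the controls, against 6.91 and 7.96 FPKM after knockdown, so that 42.2% of the control mean remained (log2 difference -1.14, SE 0.082, limma adjusted p = 0.000836).

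The labelled cell type was read against marker genes. Genes of promyelocytic granules were uneven: PRTN3, a serine protease of these granules, was at 0.0897 to 0.188 FPKM, AZU1 at 0.370 to 0.570 FPKM, and of the 8 granule genes with a row, 5 were under 1 FPKM in all 4 libraries. The other 3 were LYZ, the lysozyme gene, at 15.0 to 20.1 FPKM, SERPINB1 at 11.7 to 21.1 FPKM, and CALR, which encodes a chaperone found in all cells, at 265 to 366 FPKM. Of 20 erythroid genes, 16 were at 10 FPKM or more in all 4 libraries, and the list held 2.42% to 2.68% of all FPKM, led by the fetal globin gene HBG2 at 2890 to 3766 FPKM. The libraries are therefore named by their labels only. Of 12 further megakaryocyte and platelet markers, 6 had a row, and 5 of these 6 were under 1 FPKM in every library. The platelet tubulin gene TUBB1, at 1.58 to 2.17 FPKM, was the highest. The summed level of the 6 was 2.64 and 3.16 FPKM in the controls, against 2.20 and 2.63 FPKM after knockdown. As a share of all FPKM the groups overlapped, at 0.000722% and 0.000916% against 0.000600% and 0.000738%. TUBB1 was the only tested marker of the 6 and did not pass (limma adjusted p = 0.26), so no direction is read from this sum. The markers give no ground to call the cells megakaryocytes. In bulk RNA, fewer cells of a type and less RNA per cell cannot be told apart.

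PDGFB and PDGFA encode the B and A chains of platelet-derived growth factor, a dimer that acts on the receptor tyrosine kinases PDGFRA and PDGFRB and is stored in platelet alpha granules. ITGA2B (integrin alpha IIb) and ITGB3 (integrin beta 3) form the platelet receptor for fibrinogen, and ITGB3 also pairs with ITGAV. GP1BB and GP9 are subunits of the platelet receptor for von Willebrand factor, and RUNX1 and FLI1 regulate many genes of the lineage.

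Across the members, PDGFB showed the highest difference on the log2(FPKM + 1) scale, ITGB3, PDGFA and ITGA2B were also higher in both knockdown libraries, GP1BB and RUNX1 differed least on this scale among the genes that entered the fit, and THBS1 and CD9 were close to 0 throughout. The 5 genes that averaged 1 FPKM or more across all 4 libraries (PDGFB, PDGFA, ITGA2B, GP1BB and RUNX1) entered the fit of 10968 genes. The members nearest to this limit were PDGFA above it, with a mean of 2.82 FPKM, and ITGB3 below it, with 0.703 FPKM. The limit did not depend on the knockdown group for these 5, since each was also over 1 FPKM in both control libraries. Members were chosen with this contrast in view, so their differences are given with a standard error and without a p-value, and the number past the threshold of the fit is a description only.

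**Figure D1:**
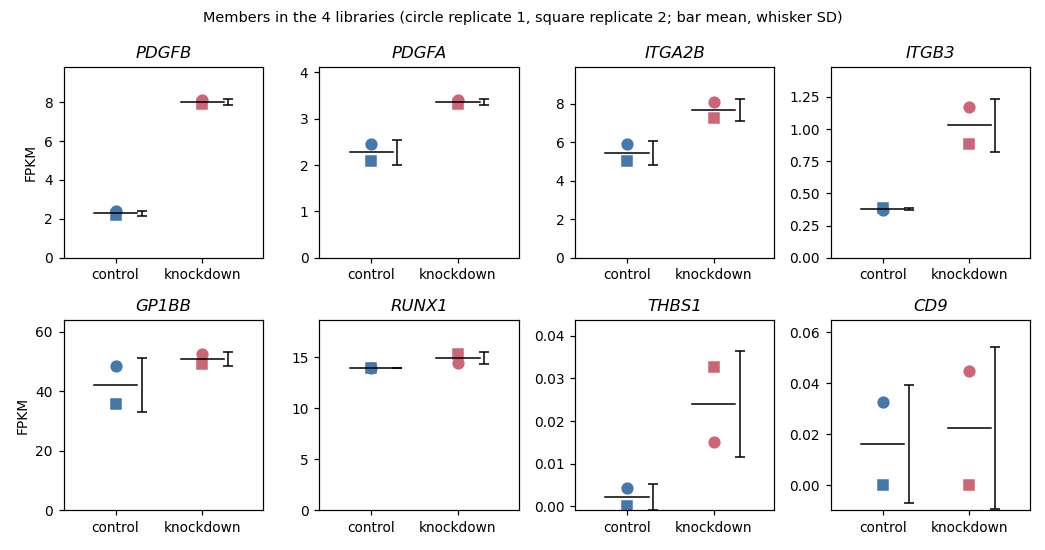
FPKM of the 8 members with a row (vertical axes, scaled per gene) in the 2 control and 2 knockdown libraries; points are libraries, horizontal bars are group means and whiskers are SD (n = 2). Both knockdown points lie above both control points for 7 of the 8 genes (THBS1 among them, near 0), where 56.8% of all 16504 genes without a filter showed no overlap in either direction, with the widest gap relative to the spread for PDGFB, and the points of CD9 overlap.

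PDGFB (chromosome 22, positions 39223359 to 39244982, minus strand, GRCh38) was listed as 1 transcript, NM_002608. Its level was 2.38 and 2.17 FPKM in the controls, against 8.11 and 7.89 FPKM after knockdown. Both knockdown libraries stood far above both control libraries, with 5.51 FPKM between the nearest values of the groups. The mean was 2.27 ± 0.145 FPKM (SD, n = 2) in the control and 7.997 ± 0.155 FPKM (SD, n = 2) in the knockdown, a ratio of 3.52. On the log2(FPKM + 1) scale the difference was 1.46 with a standard error of 0.081, and with each library left out in turn it ranged from 1.414 to 1.504. On this scale, which compresses low levels, PDGFB ranked 12th highest of the 10968 tested genes. In the control libraries 13.6% of tested genes had a lower mean level than PDGFB, and in the knockdown libraries 43.9% did. An unnamed antisense transcript overlaps the 5′ end of PDGFB in GENCODE, and whether strand was used in counting was not stated. Reads of the 2 may therefore not be fully separated where they overlap.

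PDGFA (chromosome 7, positions 497258 to 520296, minus strand, GRCh38), the gene of the partner chain, was at 2.46 and 2.08 FPKM in the controls, against 3.40 and 3.31 FPKM after knockdown. The groups did not overlap, and the distance between them was small beside that of PDGFB. The mean went from 2.27 ± 0.269 FPKM to 3.36 ± 0.0650 FPKM (SD, n = 2 each), a ratio of 1.48 and a log2(FPKM + 1) difference of 0.42 (SE 0.099). In the control libraries the B and A chain genes were thus at one level, with PDGFB at 0.965 and 1.04 times PDGFA, while in both knockdown libraries PDGFB was at 2.38 times PDGFA.

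PDGFA had 2 transcripts, which differ in an exon that encodes a basic stretch retaining the long form at the cell surface and matrix. The short form, NM_033023, was at 1.98 and 1.38 FPKM in the controls, against 2.63 and 2.51 FPKM after knockdown. The long form, NM_002607, was at 0.481 and 0.706 FPKM in the controls, against 0.771 and 0.800 FPKM after knockdown. The short form held 66.1% to 80.5% of the PDGFA level in the control libraries and 75.8% to 77.3% in the knockdown libraries, so the shares overlapped between the groups.

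ITGA2B (chromosome 17, positions 44372180 to 44389649, minus strand, GRCh38), also known as CD41, was listed as 1 transcript. The 250 bases before its start (GRCh38.p14, chr17:44389650-44389899, minus strand, from the RefSeq promoter table) are shown because ITGA2B is a classical target of the GATA, ETS and RUNX factors of the lineage. Capitals mark letters of a GATA motif (AGATAA or its form AGATAG, and TGATAA or its form TGATAG) or of an ETS core (GGAAG), on either strand.
ITGA2B: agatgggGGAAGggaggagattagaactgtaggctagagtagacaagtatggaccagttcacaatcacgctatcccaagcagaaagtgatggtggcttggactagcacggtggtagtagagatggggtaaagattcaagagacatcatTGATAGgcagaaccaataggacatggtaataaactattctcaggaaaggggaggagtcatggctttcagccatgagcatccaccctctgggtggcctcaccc
The window held 1 GATA motif at bases -102 to -97 from the start, 1 ETS core at -243 to -239, and 1 RUNX core (TGNGGT) at -128 to -123. It held no copy of the C/EBP-ATF composite motif TGATGNAA. Of 35116 promoter windows of this length, 22.3% held the GATA motif, 65.1% the ETS core, 37.7% the RUNX core and 3.14% the composite motif. These matches describe letters and not bound sites. Promoter entries were found for 7 of the 10 members, and PDGFB, ITGB3 and FLI1 had none.

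The ITGA2B level was 5.89 and 5.02 FPKM in the controls, against 8.06 and 7.24 FPKM after knockdown. Both knockdown libraries lay above both control libraries. The mean went from 5.45 ± 0.620 FPKM to 7.65 ± 0.579 FPKM (SD, n = 2 each), a ratio of 1.40 and a log2(FPKM + 1) difference of 0.42 (SE 0.095).

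ITGB3 (chromosome 17, positions 47253827 to 47313743, plus strand, GRCh38), also known as CD61, was far lower than its partner. Its level was 0.371 and 0.384 FPKM in the controls, against 1.17 and 0.883 FPKM after knockdown. Only knockdown 1 reached 1 FPKM, the control libraries were nearly equal, and the groups did not overlap. The mean was 0.378 ± 0.00913 FPKM in the control and 1.03 ± 0.204 FPKM in the knockdown (SD, n = 2 each), a ratio of 2.72. The log2(FPKM + 1) difference of 0.55 (SE 0.090, from the fit without a filter) understates this ratio, and with a pseudocount of 0.1 it was 1.23. ITGA2B was at 15.9 and 13.1 times the ITGB3 level in the control libraries and at 6.88 and 8.20 times in the knockdown libraries, so the ratio of the paired chains was lower in both knockdown libraries. GENCODE places other transcripts over ITGB3 on both strands, so their reads and its own may not be fully separated.

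GP1BB (chromosome 22, positions 19723539 to 19724771, plus strand, GRCh38) had the highest level of the members, at 48.5 and 35.7 FPKM in the controls, against 52.6 and 49.2 FPKM after knockdown. Control 1 lay within 1 FPKM of the lower knockdown library, so the groups were separated by 0.730 FPKM only. The means were 42.1 ± 9.08 FPKM and 50.9 ± 2.37 FPKM (SD, n = 2 each), and the log2(FPKM + 1) difference of 0.28 (SE 0.132) was 0.068 without control 2 and 0.50 without control 1.

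The level of GP1BB is uncertain, because the gene lies within SEPT5-GP1BB, a readthrough of the upstream gene SEPTIN5, and shares its exonic reads. The readthrough transcript NR_037611 was at 91.1 and 79.8 FPKM in the controls, against 109 and 98.9 FPKM after knockdown. The other, NR_037612, was at 4.85 and 12.7 FPKM in the controls, against 0.263 FPKM in both libraries after knockdown. When GP1BB and both readthrough rows were summed, the log2(FPKM + 1) difference was 0.19, and with SEPTIN5 added it was 0.15.

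RUNX1 (chromosome 21, positions 34787801 to 36004667, minus strand, GRCh38) was at 13.9 FPKM in each control library, against 14.5 and 15.4 FPKM in the knockdown libraries. The groups did not overlap, but the difference of 0.091 (SE 0.064, log2(FPKM + 1) scale) was within 1.5 standard errors. With each library left out in turn the difference ranged from 0.0503 to 0.131. The means were 13.9 ± 0.00372 FPKM and 14.9 ± 0.630 FPKM (SD, n = 2 each).

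RUNX1 is read from a distal and a proximal promoter, and its 3 transcripts were estimated separately. RUNX1b, NM_001001890, which starts at the proximal promoter, was at 9.45 and 8.22 FPKM in the controls, against 8.85 and 10.5 FPKM after knockdown. RUNX1c, NM_001754, which starts at the distal promoter, was at 4.23 and 5.60 FPKM in the controls, against 5.23 and 4.57 FPKM after knockdown. The short RUNX1a, NM_001122607, stayed between 0.124 and 0.393 FPKM. For RUNX1b and RUNX1c the groups overlapped, and control 2 and knockdown 1, which had the lower RUNX1b, had the higher RUNX1c.

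**Figure D2:**
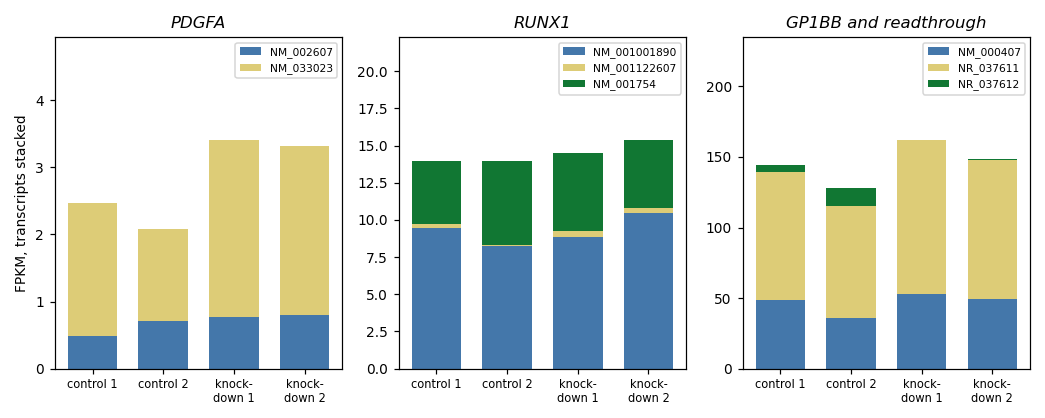
FPKM of the transcripts (vertical axes; bars stacked by RefSeq transcript) of PDGFA, of RUNX1 and of GP1BB with its readthrough transcripts in each library. The short PDGFA form NM_033023 is the larger part in every library, the RUNX1 sum stays between 13.9 and 15.4 FPKM, and NR_037612 is visible in the control libraries only.

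THBS1, the gene of thrombospondin 1, an alpha granule protein, was at 0.00435 FPKM and listed at 0 in the controls, against 0.0151 and 0.0328 FPKM after knockdown. CD9 was at 0.0325 FPKM and listed at 0 in the control libraries and at 0.0448 FPKM and listed at 0 in the knockdown libraries. At these levels no ratio is given, and a difference was not detectable. Both stayed under 1 FPKM in every library.

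By mean control level the members ranked as GP1BB (42.1 FPKM), RUNX1 (13.9 FPKM), ITGA2B (5.45 FPKM), PDGFB and PDGFA (2.27 FPKM each), ITGB3 (0.378 FPKM), CD9 and THBS1. PDGFB and PDGFA did not differ beyond their spread there, and neither did CD9 and THBS1. In the knockdown libraries the order of PDGFB and ITGA2B was no longer resolved: their means were 7.997 and 7.65 FPKM, ITGA2B of knockdown 1 lay between the PDGFB values, and PDGFA remained below both.

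**Figure D3:**
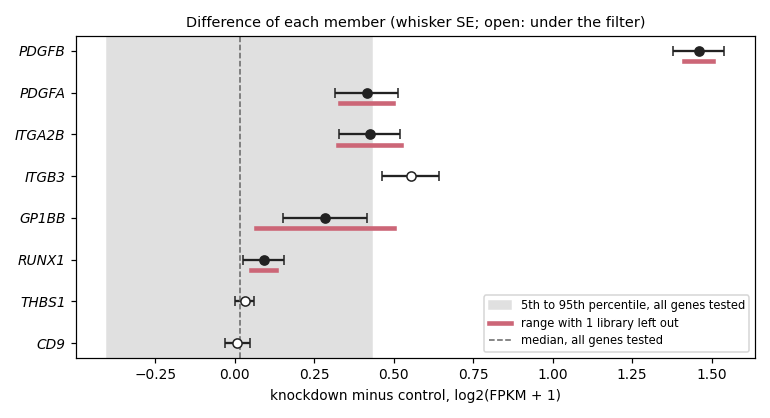
Knockdown minus control on the log2(FPKM + 1) scale (horizontal axis) for each member with a row; points are differences, whiskers are SE, open points are genes under the filter, and red lines show the range with 1 library left out. PDGFB, at 1.46, and ITGB3, at 0.55, lie outside the grey band that holds the 5th to the 95th percentile of all genes tested (-0.40 to 0.43), and the red line of GP1BB, from 0.068 to 0.50, is the longest.

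All 5 tested members had groups that did not overlap, each with the knockdown higher, where 34.3% of all tested genes showed this direction without overlap and 64.8% showed no overlap in either direction. With columns scaled to one sum, or with the most abundant transcript in place of the sum, 4 of the 5 did not overlap. The groups of RUNX1 overlapped in each of these alternatives. An adjusted p under 0.05 in limma was reached by 3 of the 5 (PDGFB, PDGFA and ITGA2B), against 20.9% of all tested genes (10.9% higher and 9.99% lower). The median difference was 0.42 over the 5 members and 0.015 over all tested genes. The count of 3 was 1 (PDGFB) without control 2, knockdown 1 or knockdown 2, and 4 without control 1. As the contrast itself was known when the members were chosen, nothing is read from these counts.

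The genes whose profile over the 4 libraries was most like that of PDGFB were found by the root mean square distance between log2(FPKM + 1) profiles, each centred on its own mean, among 10963 other tested genes. TMEM158, which encodes a membrane protein, was nearest at 0.0414, with 24.2 and 21.1 FPKM in the controls, against 64.9 and 65.7 FPKM after knockdown. It was followed by CD68 (0.142), the gene of a lysosomal membrane protein, INAFM1 (0.147), PHLDA1 (0.151) and CCDC74A (0.151). With 4 libraries in 2 groups, such a distance reflects the size of the group difference above all else.

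**Figure D4:**
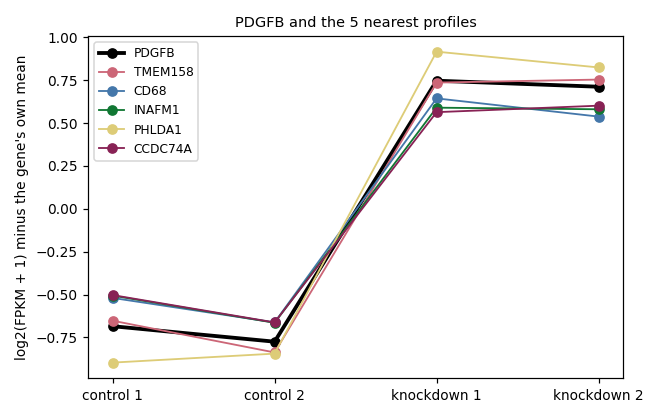
Centred log2(FPKM + 1) (vertical axis) of PDGFB and of the 5 genes with the nearest profile in the 4 libraries (horizontal axis); each line is a gene and each point a library. TMEM158 follows PDGFB most closely, at a distance of 0.0414, and PHLDA1 has a wider gap between the groups than PDGFB.

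Other genes around the PDGF chains, which act as ligands, receptors, co-receptors or processing enzymes, were read next. Of 14 listed genes 4 were tested, of which 1 rose, where 10.9% of all tested genes rose. FURIN, the gene of a convertase that cleaves growth factor precursors, was higher: 21.1 and 19.1 FPKM in the control libraries against 28.0 and 26.3 FPKM in the knockdown libraries (log2 difference 0.42, SE 0.073, limma adjusted p = 0.0114). This call was lost without knockdown 1 (limma adjusted p = 0.0734, where the alternatives ranged from 0.000769 to this value). The other 3, VEGFA, VEGFB and PCSK7, did not pass, with differences from -0.098 to 0.14. The VEGFA sum held transcripts that moved in opposite directions. NM_001025370 went from 8.49 and 8.16 FPKM in the controls to 4.18 and 3.79 FPKM after knockdown. NM_001171628 went from 2.95 and 2.59 FPKM to 8.41 and 8.09 FPKM.

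Integrin chains other than the members were mostly under the filter. Of 24 listed chains 17 had a row and 5 were tested, of which 4 rose and none fell, where 10.9% of all tested genes rose, and ITGAE, named after its value was seen, did not pass (0.077, limma adjusted p = 0.649). ITGA5, the alpha chain of the fibronectin receptor, rose from 30.1 and 26.0 FPKM to 59.3 and 60.7 FPKM (log2 difference 1.07, SE 0.078, limma adjusted p = 0.000855). Its partner ITGB1 rose from 61.4 and 61.0 FPKM to 84.9 and 92.6 FPKM (0.53, SE 0.063, limma adjusted p = 0.00351). ITGAV, the other alpha partner of ITGB3, rose from 9.30 and 7.93 FPKM to 11.0 and 11.4 FPKM (0.34, SE 0.086, limma adjusted p = 0.0341), and ITGB5, a further partner of ITGAV, rose by 0.28 (SE 0.070, limma adjusted p = 0.0325). The calls on ITGA5 and ITGB1 held without each library in turn, and those on ITGAV and ITGB5 were lost without control 2, knockdown 1 or knockdown 2.

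Genes of platelet adhesion, granules and signalling moved both ways. Of 54 listed genes 41 had a row and 23 were tested, of which 5 rose and 6 fell, where 10.9% of all tested genes rose and 9.99% fell, and the median difference was 0.026. Among those that rose, TIMP1, an inhibitor of matrix metalloproteinases held in alpha granules, went from 212 and 175 FPKM to 295 and 301 FPKM (0.63, SE 0.093, limma adjusted p = 0.00633). VIPAS39, needed for alpha granule formation, rose by 0.43 (limma adjusted p = 0.0197; 0.89 by its most abundant transcript), the ATP receptor gene P2RX1 by 0.43 (0.0349), and FERMT3, the gene of kindlin-3, which activates integrins, by 0.31 (0.0223).

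Among those that fell, TGFB1, another growth factor of alpha granules, went from 64.8 and 58.3 FPKM to 32.9 and 33.4 FPKM (log2 difference -0.87, SE 0.068, limma adjusted p = 0.00102). TGFB1 thus went in the direction opposite to PDGFB. RASGRP2, an activator of Rap1 upstream of integrin activation, fell from 5.20 and 4.45 FPKM to 2.32 and 2.26 FPKM (-0.82, SE 0.097, limma adjusted p = 0.00333), and by its most abundant transcript alone the difference was -1.94. The thromboxane receptor gene TBXA2R fell from 15.3 and 14.0 FPKM to 9.16 and 8.90 FPKM (-0.64, SE 0.071, limma adjusted p = 0.00266), and F2RL3, a thrombin receptor gene, with a log2 difference of -0.40 (limma adjusted p = 0.0223). The calls on TIMP1, TGFB1, RASGRP2 and TBXA2R held without each library in turn, and that on TIMP1 was lost with no filter (limma adjusted p = 0.0555). The count of 11 called genes was 6 without control 1, 5 without knockdown 1 and 4 without knockdown 2, in which VIPAS39, P2RX1, FERMT3 and F2RL3 were each lost at least once.

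Transcription factors of megakaryocytes and their precursors were mostly abundant. Of 35 listed genes 27 were tested, of which 5 rose, 3 fell and 19 did not pass, against 20.9% called among all tested genes, and the median difference was 0.068. EGR1, an immediate early zinc finger factor, rose from 11.1 and 11.4 FPKM to 17.5 and 17.6 FPKM (0.60, SE 0.062, limma adjusted p = 0.00215). ZFPM1, which encodes FOG1, the partner of GATA1, rose from 13.7 and 14.0 FPKM to 20.04 and 18.4 FPKM (0.45, SE 0.068, limma adjusted p = 0.00685). TAL1 rose by 0.39 (limma adjusted p = 0.0134) and GFI1B, a repressor of the erythroid and megakaryocyte lineages, by 0.37 (0.0065).

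MECOM fell from 4.92 and 4.07 FPKM to 2.43 and 2.61 FPKM (log2 difference -0.64, SE 0.105, limma adjusted p = 0.00907). IKZF1, the gene of Ikaros, fell from 15.6 FPKM in both control libraries to 10.4 and 10.9 FPKM (-0.51, SE 0.064, limma adjusted p = 0.00387), and MEIS1 fell by 0.50 (limma adjusted p = 0.0437). The MEIS1 difference was -0.326 without knockdown 2 and -0.668 without knockdown 1. With a pseudocount of 0.1 the MEIS1 call was lost (limma adjusted p = 0.0502). The calls on EGR1, ZFPM1, IKZF1 and MECOM held without each library in turn, but with the most abundant transcript in place of the sum IKZF1 (limma adjusted p = 0.0765) and MECOM (0.133) were lost, MECOM also with no filter (0.0587). TAL1 and GFI1B were lost without knockdown 1 or knockdown 2 and with the most abundant transcript (limma adjusted p = 0.0903 and 0.254, GFI1B with a difference of 0.24), and MEIS1 without control 1, control 2 or knockdown 2. Of the factors that did not pass, GATA1 and NFE2 (named after their values were seen) were at 110 to 128 FPKM and 71.5 to 79.2 FPKM, with differences of -0.10 and -0.029 (limma adjusted p = 0.36 and 0.799).

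Tetraspanins, the family of CD9, were read as well. Of 32 listed genes 13 were tested, of which 2 rose and 1 fell, a share near the 20.9% called among all tested genes. TSPAN4 rose from 11.6 and 11.0 FPKM to 16.5 and 14.7 FPKM (0.42, SE 0.077, limma adjusted p = 0.0128) and CD37 by 0.41 (0.0438), while TSPAN13 fell from 12.9 and 12.4 FPKM to 8.63 and 8.78 FPKM (-0.49, SE 0.066, limma adjusted p = 0.0048). The CD37 difference was 0.261 without control 2 and 0.567 without control 1. TSPAN13 held without each library in turn, TSPAN4 was lost without knockdown 1, and CD37 without control 2, knockdown 1 or knockdown 2. CD63, the tetraspanin of platelet dense granules and lysosomes, named after its value was seen, had the highest level of the family at 213 to 253 FPKM, with a difference of 0.14 (limma adjusted p = 0.199).

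**Figure D5:**
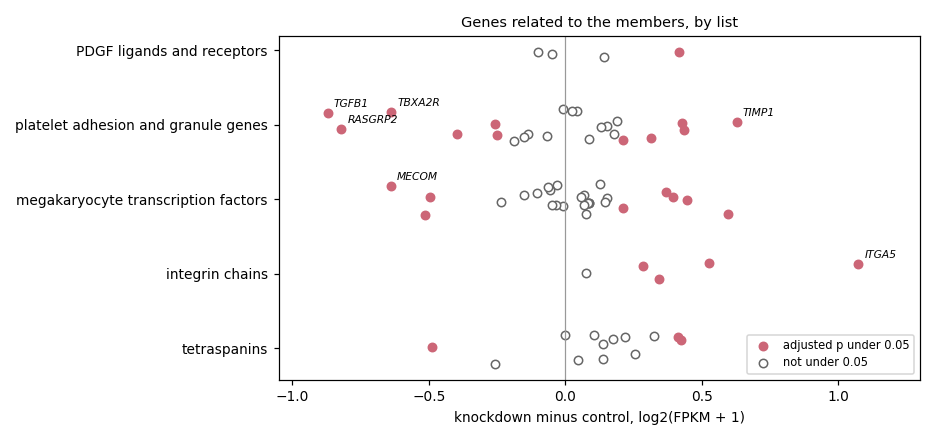
Knockdown minus control on the log2(FPKM + 1) scale (horizontal axis) for the tested genes of the 5 related lists (rows, jittered); each point is a gene, filled where the limma adjusted p was under 0.05. The 5 integrin chains lie at or above 0.077, with ITGA5 at 1.07, while the platelet genes spread from -0.87 (TGFB1) to 0.63 (TIMP1).

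Markers of other blood cells were read in the same comparison, where 10.9% of all tested genes rose and 9.99% fell. Of 17 tested erythroid genes 2 rose, 4 fell and the others did not pass. The fetal globin genes rose, HBG1 from 1539 and 1485 FPKM to 1998 and 1897 FPKM and HBG2 from 3095 and 2890 FPKM to 3766 and 3479 FPKM. Among those that fell, the embryonic zeta globin gene HBZ went from 385 and 358 FPKM to 208.5 and 209.5 FPKM. ALAS2, the erythroid enzyme of heme synthesis, went from 23.0 and 19.3 FPKM to 13.1 and 11.6 FPKM. The summed level of the erythroid list was 8842 and 8375 FPKM in the controls, against 9803 and 9237 FPKM after knockdown. Of the granule genes the 3 tested ones, LYZ, SERPINB1 and CALR, fell, while AZU1, under the filter, was at 0.404 and 0.370 FPKM in the controls, against 0.570 and 0.547 FPKM after knockdown. The summed level of that list was 408 and 377 FPKM in the controls, against 306 and 295 FPKM after knockdown, of which CALR alone made up 366 and 339 FPKM and 278 and 265 FPKM. Of 12 myeloid surface and regulator genes 3 were tested, of which 0 passed in limma after adjustment and 2 had an unadjusted p under 0.05 (4057 of all 10968 tested genes had one), and the summed level of the list was 37.1 and 38.6 FPKM in the controls, against 43.6 and 44.2 FPKM after knockdown. Of the endothelial markers, another source of PDGFB, 3 of 8 had a row, and their summed level was 0.317 to 0.441 FPKM over all libraries. The part of these markers in the differences of the members was not tested.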

How the data were processed

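RNA-seq of total RNA from 4 libraries was used. The authors deposited FPKM values per RefSeq transcript, made from reads mapped with HISAT2 2.0.5 to hg38 per the submitters' processing notes; the quantifier and the annotation release are not given in the sources used here. FPKM depends on how reads were divided among transcripts and on the library total. Of 29265 rows, 183 without values and 164 without a symbol (0.250% of FPKM) were left out, and 28918 were summed to 16504 symbols. Read depth is unknown: among 1817 single-transcript genes under 0.2 FPKM in both control libraries, the most common ratio of the 2, at 2 decimals, made up 1.27%, so whole reads were not recovered.

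Genes that averaged 1 FPKM or more were fitted as log2(FPKM + 1) in limma 3.58.1 (R 4.3.3; mean trend, 2-sided, Benjamini-Hochberg over 10968 genes, threshold 0.05), with 2 libraries per group and no block. A fold on this scale understates changes of low genes. The code was tested on simulated data. Positions are from GENCODE 44 (GRCh38). Members and lists were chosen with earlier results of these data known. Named were all members, CEBPG, up to 4 called genes per direction and list, and the 5 profiles nearest to PDGFB; marker genes come from fixed lists. Alternatives were no filter, a pseudocount of 0.1, 2 scalings, a replicate block, the most abundant transcript, no trend, and each library left out. The step check, the motif letters and the GP1BB sums were chosen after seeing the data. Several granule genes, such as MPO and ELANE, were not analysed here.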

Additional observations from a re-analysis of the deposited data

How the results depend on the processing

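The direction of every member that entered the fit was kept in all 11 alternatives. With each library left out in turn, where the lone sample of a group is assumed to vary like the other group, called genes numbered 825 to 1925 (2288 with all libraries), called members 1 to 4 (3), called PDGF-related genes 0 to 1 (1), platelet genes 4 to 9 (11), transcription factors 4 to 7 (8), integrin chains 2 to 4 (4) and tetraspanins 1 to 4 (3). The lowest counts of genes came without knockdown 1 (825) and without knockdown 2 (838), where transcription factors numbered 5 and 4, and tetraspanins fell to 1 without knockdown 1. With no filter 16504 genes were tested and 882 called, with 1 member and 0, 3, 4, 2 and 1 genes of these 5 lists in the same order (4441 genes had an unadjusted p under 0.05). The most abundant transcript in place of the sum gave 579 genes, 1 member and 2, 5, 2, 2 and 1 list genes. Of the named list genes, P2RX1, FERMT3, F2RL3, TAL1, GFI1B, MEIS1, IKZF1, MECOM, ITGAV, ITGB5, TSPAN4 and CD37 lost their call there, and with no filter the same genes did except GFI1B and IKZF1, with FURIN, TIMP1 and VIPAS39 in addition. Genes called higher and lower numbered 1192 and 1096, against 1207 and 718 without control 1, 697 and 915 without control 2, 1249 and 1427 with columns scaled to one sum, and 1315 and 1378 with median-ratio scaling. Moderation without a trend gave 2 integrin chains, and columns scaled to one sum gave 5 tetraspanins. At an unadjusted p under 0.05 with a log2 difference over 1, 66 genes passed (0.602%), and 146 with a pseudocount of 0.1, an alternative chosen after seeing the data. The causes were not tested. No label ties a replicate number to a shared culture or day, and the correlation of deviations between libraries of one number was 0.101 across genes. The replicate block gave 3440 called genes, 4 called members (GP1BB was added) and 6 tetraspanins. PDGFB was 1.77 and PDGFA 0.55 with a pseudocount of 0.1. Read depth is unknown, which limits ITGB3, THBS1 and CD9 most.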
